A study of Homo sapiens with 12 samples.

Results

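Clones D6 and E1 are gefitinib-tolerant derivatives of PC9, a human lung adenocarcinoma cell line whose growth depends on an activating mutation of the receptor EGFR. Each was grown from a single sorted cell and measured on 2 Illumina expression bead arrays, 4 of the 12 arrays of a series that also holds tolerant clones E2, E3 and E6 and the sensitive clone B7. Every sample, B7 included, carries the same treatment label of gefitinib, an EGFR kinase inhibitor, at 0.4 to 2 µM for 14 days. The labels do not say whether the tolerant clones were in drug at harvest, whether B7 was exposed, or whether the 2 arrays of a clone came from separate cultures. Each clone stands for itself alone, and the p-values below measure only the spread between arrays, which may be technical.

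The pair was picked because it is close over all genes, a choice made on the same values that are compared here, so the number of differences is given as a description. Over 12250 detected genes the root mean square difference between the clone means of D6 and E1 was 0.3941 log2 units. The data go slightly against the name of closest pair: E3 and E6 lay at 0.3916. Their single-array distances overlap, with 0.4188 to 0.4232 for D6 against E1 and 0.4106 to 0.4251 for E3 against E6, so the order of these pairs is not settled. D6 and E1 came first with another background offset, with 75th percentile scaling, and over genes detected on all 4 of their arrays. The next pair, D6 and E3, lay at 0.4421, and E1 and B7 were farthest apart at 0.9708. The 2 arrays of D6 differed by 0.214 and those of E1 by 0.198.

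**Figure D1:**
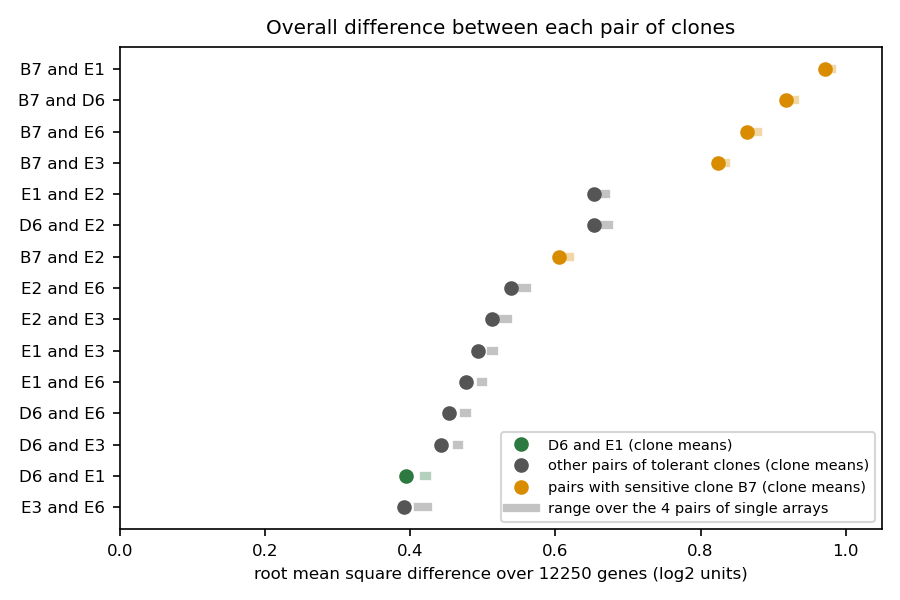
Root mean square difference in log2 units over 12250 genes for each pair of clones. Points are differences between clone means and bars the range over the 4 pairs of single arrays, which carry more noise. D6 with E1 (0.3941) and E3 with E6 (0.3916) lie side by side at the short end.

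EGFR signals through RAS, RAF and ERK to the transcription of early genes such as FOS and feedback genes of the SPRY and DUSP families, and drives PC9 cells through the cell cycle. Cells that survive EGFR inhibitors are known to divide slowly and to take up features of other epithelial states, among them squamous, mesenchymal and secretory programmes. Epithelial markers were present: EPCAM, KRT8, KRT18, KRT19 and CDH1 were detected on all 4 arrays. The lung lineage factor NKX2-1 and the surfactant genes SFTPB and SFTPC were not detected on any of the 4. NAPSA, the fourth lung lineage marker, was detected on both D6 arrays (6.25 and 6.44 log2 units) and on neither E1 array (5.62 and 5.97), a difference of 0.55 that did not pass (adjusted p = 0.071). Not detected on any of the 4 arrays were the leukocyte markers PTPRC and CD3D, although CD14 and LYZ were. Of 6 fibroblast markers 4 were not detected on any of the 4 arrays and COL1A1 was detected on all of them, as were the endothelial markers PECAM1 and CDH5. The 75th percentile of raw signal was 80.1 to 80.2 intensity units on the D6 arrays, 94 to 95 on the E1 arrays and 92.7 to 133 on the other arrays. Its part in the differences below was not tested.

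Of the 12250 genes, 3930 differed between D6 and E1 at an adjusted p under 0.05 (limma), 32.1% of those tested. Of these, 1727 were higher in D6 (14.1%) and 2203 lower (18.0%). Most differences were small: 114 genes were at least 2-fold higher (0.931%) and 176 at least 2-fold lower (1.44%), 290 genes in all or 2.37%. The split of the calls depends on the scaling. With median scaling, which shifts all genes by a median of -0.127 log2 units, 20.4% of the calls were higher in D6 against 43.9% here. With the authors' values it was 35.7%. Of the 290 genes, 290 were still called in the same direction under median scaling and 286 with the authors' values, but the number past 2-fold moved. It was 73 higher with median scaling, and 261 higher and 546 lower with the authors' values. The arrays of the clones did not overlap for 8060 genes, 65.8% of those tested, so a lack of overlap is common and is not read as a finding for any gene below. Where a gene had a further kept probe, it pointed the same way for 80 of 82 genes of at least 2-fold (97.6%). The same held for 82.5% of called genes and 68.4% of all genes with such a probe. For the 82 genes the further probe's difference had a median size 0.643 times that of the brightest probe.

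**Figure D2:**
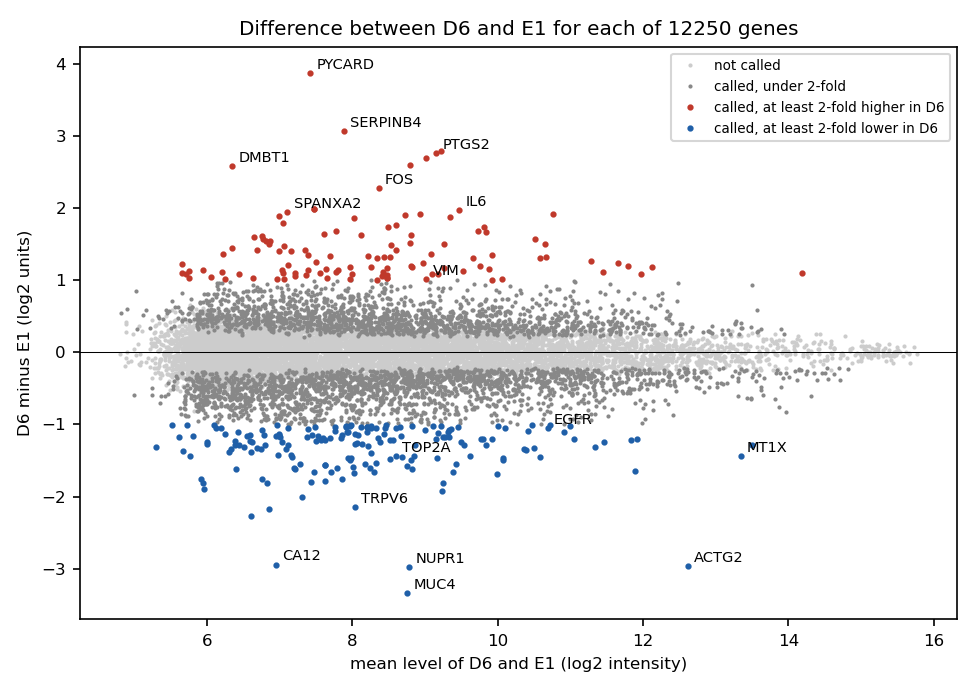
D6 minus E1 in log2 units against the mean level of both clones (log2 intensity), one point per gene. Coloured points are the 114 genes at least 2-fold higher and the 176 at least 2-fold lower in D6 at an adjusted p under 0.05. They lie at every level, with PYCARD at the top and MUC4 at the bottom.

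The gene highest in D6 relative to E1 was PYCARD, which encodes ASC, the adaptor that assembles inflammasomes. Its level was 9.35 and 9.37 log2 units on the D6 arrays and 5.39 and 5.60 on the E1 arrays. Its probe was not detected on either E1 array, so its level was at least 10.4-fold higher in D6 (adjusted p = 1.1e-08). It was not detected in B7 either, while E2, E3 and E6 stood at 8.36, 8.72 and 7.13. E1 thus resembled B7 at this gene and D6 the other tolerant clones. A dimmer PYCARD probe differed by 1.68.

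Inflammatory mediators stood out among the genes high in D6, but not in one direction. PTGS2, which encodes the prostaglandin synthase COX-2, was at 10.53 and 10.55 log2 units in D6 and 7.81 and 7.75 in E1, a 6.77-fold difference (adjusted p = 2.2e-08). The other 4 clones lay between 6.07 and 7.98, so D6 alone was high. The cytokine IL6 was at 10.43 and 10.48 in D6 and 8.45 and 8.53 in E1 (3.91-fold, adjusted p = 2.0e-07). Here D6 sat with E2 (10.36) and E3 (9.95), and E1 with E6 (8.19) and B7 (8.78). The neutrophil chemokine CXCL6 was at least 2.76-fold higher in D6, undetected in E1, and the IL-6 family cytokine IL11 was 2.76-fold higher. Of 33 tested genes of the list of inflammatory cytokines and NF-kB targets, 10 rose and 7 fell (11 fell with median scaling). That is 30.3% higher and 21.2% lower, against 14.1% and 18.0% of all genes. The list had a median of 0.0912 against -0.00764 over all genes. The median lies between -0.0244 and 0.151 over the alternatives, so the list as a whole has no settled direction.

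Squamous genes had the largest share of members called higher in D6 among the 42 lists, 50% against 14.1% of all genes, although the median of the cancer testis antigens was larger. The list holds genes of the cornified envelope, keratins of stratified epithelium and squamous serpins. Of 26 tested, 13 rose and 2 fell (median 0.261). With median scaling 8 rose and 3 fell, and without the first or the second E1 array 0 fell. SERPINB3 and SERPINB4 encode the squamous cell carcinoma antigens, inhibitors of proteases. SERPINB4 was at 9.50 and 9.33 log2 units in D6 and 6.35 and 6.36 in E1 (8.33-fold, adjusted p = 9.8e-07), with 5.69 to 6.62 in the other clones. SERPINB3 was at 10.63 and 10.59 in D6 and 7.76 and 7.89 in E1 (6.89-fold, adjusted p = 8.2e-07), and its dimmer probe differed by 1.77. D6 was the highest of the 6 clones for both. The small proline-rich envelope precursors followed a different pattern across clones. SPRR3 was at 10.33 and 10.39 in D6 and 7.85 and 7.48 in E1 (6.46-fold), but E3 reached 10.67 and E6 9.60, so E1 was the low one. SPRR1B was 2.50-fold higher in D6, with E3 again highest at 9.51.

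SERPINB3 and SERPINB4 lie next to each other on chromosome 18 and arose by duplication. Their upstream sequences are printed because the genes moved together and their start regions are nearly the same. The 250 bases before each gene's start (RefSeq, GRCh38.p14, minus strand, chr18:63661894-63662143 for SERPINB3 and chr18:63644257-63644506 for SERPINB4) share 247 bases, and the 3 that differ are in capitals. Probe sequences were not compared, so whether the probes of these genes share signal was not tested.
SERPINB3: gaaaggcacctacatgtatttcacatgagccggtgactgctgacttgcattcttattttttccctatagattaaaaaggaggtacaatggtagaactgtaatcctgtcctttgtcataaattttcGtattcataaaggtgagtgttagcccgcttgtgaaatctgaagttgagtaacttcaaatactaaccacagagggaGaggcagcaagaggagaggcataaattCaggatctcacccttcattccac
SERPINB4: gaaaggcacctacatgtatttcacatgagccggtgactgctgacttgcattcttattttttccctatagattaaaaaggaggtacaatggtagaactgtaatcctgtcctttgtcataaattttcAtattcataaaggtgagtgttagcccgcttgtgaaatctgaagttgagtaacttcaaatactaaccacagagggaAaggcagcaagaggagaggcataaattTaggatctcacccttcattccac

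The serpins formed part of a run of neighbours. In RefSeq gene order, 7 consecutive tested genes on chromosome 18, from VPS4B to TMX3, were all higher in D6, with a median of 1.07. Among them SERPINB5 (maspin) was higher by 0.72, SERPINB7 by 1.07 and SERPINB8 by 1.50 log2 units. The outer genes VPS4B and TMX3 differed by only 0.31 and 0.34 and lost their call under 7 or more of the 15 alternatives, leaving out single arrays among them, when 5 genes remained called.

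Other genes far higher in D6 came from signalling, matrix and adhesion. FOS, a subunit of the AP-1 transcription factor, was at 9.59 and 9.43 log2 units in D6 and 7.30 and 7.15 in E1 (4.86-fold, adjusted p = 7.9e-07). B7 was at 9.54, so D6 equalled the sensitive clone there. Of 22 tested genes of the list of ERK pathway output, 6 rose (27.3% against 14.1% of all genes) and 2 fell (9.09% against 18.0%). The median was 0.145. The higher genes include the phosphatase DUSP4 (2.11-fold) and the feedback inhibitor SPRY1 (2.10-fold). Against B7 the list's median was -1.28 in D6 and -1.86 in E1, with -1.40, -2.24 and -1.85 in E2, E3 and E6. These values share the B7 arrays.

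CCN2, a matricellular protein and a standard target of YAP, was at 9.95 and 9.82 in D6 and 8.04 and 7.90 in E1 (3.77-fold, adjusted p = 0.00026). Both stood above every other clone (5.67 to 6.68). Of 22 tested genes of the YAP and TEAD list, 8 rose (36.4% against 14.1% of all genes) and 3 fell (13.6% against 18.0%). The median was 0.138, or 0.00444 with median scaling. Without the second D6 array 0 fell and without the first E1 array 1 fell. BMP2, a ligand of the TGF-beta superfamily, was 3.95-fold higher in D6 (adjusted p = 2.8e-05). In the list of TGF-beta, BMP and ID genes 7 of 24 rose (29.2%) and 2 fell (8.33%). The median of this list was 0.122, and 0.0457 to 0.175 over the alternatives. ID3 and PMEPA1, both induced by such ligands, were 1.81-fold and 1.99-fold higher. Among WNT genes 8 of 27 rose (29.6%) and 2 fell (7.41%), and 6 rose with median scaling. Their median of 0.0292 ran from -0.0516 to 0.102 over the alternatives, with -0.00624 without the second D6 array. The inhibitor DKK1 was 2.00-fold higher, and the ligand WNT10A at least 1.45-fold, undetected in E1. LOXL4, a lysyl oxidase that crosslinks collagen, was at 10.02 and 10.18 in D6 and 7.36 and 7.66 in E1 (6.02-fold), with E3 at 10.63. The collagen chain COL5A1 was 3.16-fold higher and the collagen-binding integrin ITGA2 2.83-fold higher in D6.

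DMBT1, a secreted mucosal glycoprotein, was detected in D6 and B7 and in no other clone. It was at 7.57 and 7.71 in D6 and at 5.12 and 4.99 in E1, at least 3.15-fold apart. The neuronal filament INA was 3.72-fold higher in D6, with E1 (7.79 and 7.76) the lowest of the 6 clones. TRIM17, a ubiquitin ligase, was 3.97-fold higher, and TCIM, a small regulator of transcription, 3.76-fold higher.

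The SPANX genes, expressed in sperm and cancers, make a further run. On chromosome X, 6 consecutive tested genes from SPANXC to SPANXN3 were higher in D6, with a median of 1.10. SPANXA2 was at 8.07 and 8.09 in D6 and 6.09 and 6.19 in E1 (3.84-fold, adjusted p = 1.2e-06). B7 was higher still at 9.66, and E2, E3 and E6 lay at 5.60 to 6.22. SPANXA1 differed by 1.89, and SPANXC was at least 2.99-fold higher. The 250 bases upstream of SPANXA1 and SPANXA2 are identical in RefSeq, those of SPANXC differ from them at 3 positions, and whether their probes read the same RNAs was not tested. SPANXD and SPANXN3 differed by 0.58 each, and SPANXN3 was not detected on any of the 4 arrays. Over the alternatives that tested all 6 genes, 4 to 6 stayed called, with 4 when the second E1 array was left out or only the 4 arrays of D6 and E1 were fitted. Where detection on all 4 arrays was required, 3 were tested and 3 stayed called. The list of cancer testis antigens shares MAGEC1 with the run and holds no SPANX gene. Of 11 tested 5 were higher (45.5% against 14.1% of all genes) and 1 lower (9.09% against 18.0%), with a median of 0.381.

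**Figure D3:**
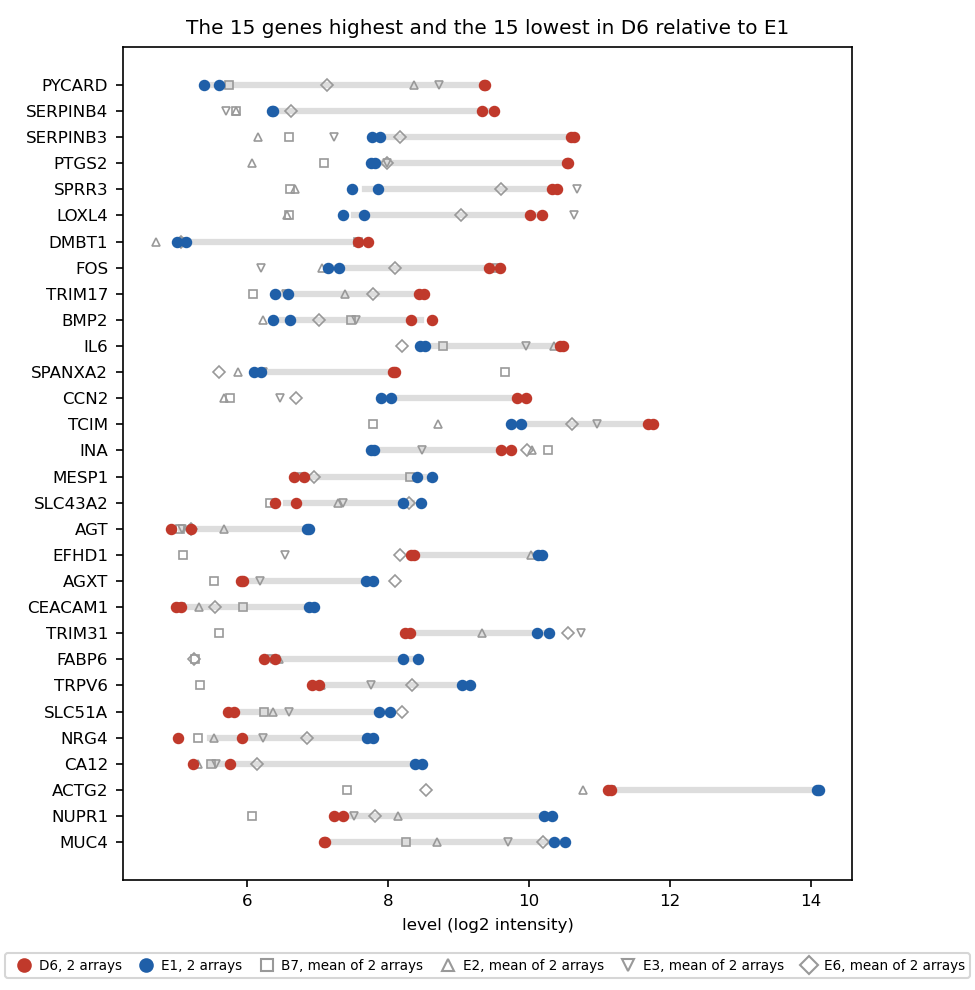
Levels (log2 intensity) of the 15 genes highest and the 15 lowest in D6 relative to E1. Filled points are single arrays of D6 and E1 and open symbols the means of B7, E2, E3 and E6. The 2 arrays of a clone lie close together beside the gap between the clones, except for CA12 and NRG4 in D6, where both arrays are below detection.

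On the E1 side the largest difference was that of MUC4, a membrane mucin that associates with ERBB2. Its brightest probe was at 7.08 and 7.10 log2 units in D6 and 10.36 and 10.50 in E1 (10.1-fold, adjusted p = 1.1e-08). B7, E2, E3 and E6 lay between these, at 8.26 to 10.20. The other kept MUC4 probes differed by only -0.116 and -0.233, so the size rests on 1 probe. MUC4 lies in a run of 7 consecutive genes on chromosome 3, FAM43A to TNK2, all lower in D6, with a median of -0.46. Outside MUC4 the differences there were -0.32 to -0.80, and 4 to 7 genes stayed called over the alternatives, with 4 when the second D6 array was left out.

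NUPR1, a small chromatin protein induced by stress, was at 7.23 and 7.36 in D6 and 10.33 and 10.21 in E1 (7.86-fold, adjusted p = 7.9e-07), and its other probe differed by -2.59. E1 was the highest of the 6 clones, with 6.06 in B7 and 7.51 to 8.13 in E2, E3 and E6. NUPR1 belongs to the list of the integrated stress response and amino acid supply, with 34 genes tested. In D6 16 fell (47.1% against 18.0% of all genes) and 8 rose (23.5% against 14.1%). The median was -0.237, and -0.356 to -0.157 over the alternatives. Relative to B7 the list's median was 0.569 in D6 and 0.535 in E1, with 0.845, 0.223 and 0.215 in E2, E3 and E6. These values share the B7 arrays. ASNS, asparagine synthetase, was 2.31-fold lower in D6 and DDIT4, an inhibitor of mTORC1, 2.43-fold lower. STC2, a secreted glycoprotein of the same list, went the other way and was 1.95-fold higher. Of 17 genes of ER chaperones and the unfolded protein response, 9 fell (52.9%) and 2 rose (11.8%). DNAJB9 and EDEM1 were each 2.05-fold lower in D6. Leaving out the second D6 array or either E1 array left 5 lower genes in the ER list.

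ACTG2, the gamma actin of smooth muscle, was at 11.16 and 11.12 in D6 and 14.12 and 14.08 in E1 (7.77-fold, adjusted p = 2.2e-08). Its relative ACTA2 was 3.14-fold lower and the myosin light chain MYL9 2.52-fold lower in D6. Actin genes are alike in sequence, so the probes of ACTG2 and ACTA2 may share signal. In the mesenchymal list these contractile genes ran against others. Of 21 tested, 7 rose (33.3% against 14.1% of all genes) and 5 fell (23.8% against 18.0%). VIM, the mesenchymal filament vimentin, was at 9.51 and 9.55 in D6 and 8.53 and 8.50 in E1 (2.02-fold higher, adjusted p = 3.6e-05), and 1.36 log2 units apart at its other probe. The calcium-binding protein S100A4 was 2.76-fold lower in D6. The cadherin CDH1 of epithelial junctions was 1.37-fold lower in D6 (adjusted p = 0.0012). Mesenchymal genes therefore did not separate the clones in one direction.

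Transporters and enzymes were also among the genes lower in D6. SLC51A, a subunit of the basolateral bile acid exporter, was at 5.81 and 5.73 in D6, where it was not detected, and at 8.02 and 7.86 in E1, at least 3.81-fold apart. FABP6, the ileal bile acid-binding protein, was 4.02-fold lower in D6 (adjusted p = 1.5e-06) and -1.77 at its other probe, and E1 was its highest clone. TRPV6, a calcium uptake channel, was 4.41-fold lower (adjusted p = 4.3e-07). CA12, a membrane carbonic anhydrase, was undetected in D6 (5.75 and 5.22) and at 8.38 and 8.48 in E1, at least 5.34-fold apart, and the other clones lay at 5.30 to 6.13. In the list of lung and gut lineage genes, 6 of 19 fell (31.6% against 18.0% of all genes) and 2 rose (10.5% against 14.1%). When only genes detected on all 4 arrays were fitted, 3 of 9 fell and 1 rose. The adhesion molecule CEACAM5 was 3.18-fold lower in D6, whereas TFF1, a mucosal trefoil peptide, was at least 2.12-fold higher in D6. CEACAM1 was at least 1.87-fold lower, AGXT, a liver peroxisomal transaminase, at least 3.31-fold, and angiotensinogen (AGT) at least 1.80-fold, each undetected in D6. TRIM31, a ubiquitin ligase, was 3.78-fold lower and the calcium-binding protein EFHD1 3.50-fold lower. The amino acid transporter SLC43A2 and the transcription factor MESP1 were 3.48-fold and 3.43-fold lower.

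Ligands and receptors of the EGFR family differed in both directions. NRG4, a ligand of ERBB4, was undetected in D6 (5.02 and 5.92) and at 7.78 and 7.69 in E1, at least 3.31-fold apart (adjusted p = 6.7e-05). HBEGF and BTC, which bind EGFR, were 2.49-fold and 1.76-fold higher in D6. EGFR itself was at 10.18 and 10.15 in D6 and 11.17 and 11.25 in E1 by its brightest probe (2.07-fold lower, adjusted p = 2.2e-05), while its other kept probes differed by -0.0124 and 0.173. Of 11 tested genes of this family 3 rose (27.3% against 14.1% of all genes) and 4 fell (36.4% against 18.0%). Among 14 other receptor kinases 0 rose and 3 fell, 21.4% against 18.0% of all genes, and 2 fell without the first D6 or the second E1 array. FGFR3 was 2.44-fold lower in D6 and differed by -0.0915 at its other probe. MET differed by 0.02 (adjusted p = 0.866), AXL by 0.04 (adjusted p = 0.84). BCL2L11, which encodes the death-promoting protein BIM, differed by 0.05 (adjusted p = 0.798), and by 0.438 at a dimmer probe. The sign of these 3 changed with the scaling, and their arrays spread by more than the difference for MET and AXL.

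Genes of cell division were lower in D6 as a group. Of 38 tested mitosis genes 32 fell (84.2% against 18.0% of all genes) and 1 rose (2.63% against 14.1%), with a median of -0.703. They included the centrosome kinase NEK2 (2.93-fold lower), the spindle protein NUSAP1 (2.73-fold), the topoisomerase TOP2A (2.71-fold) and the midzone protein PRC1 (2.32-fold). The other probes of NEK2 and NUSAP1 differed by -0.45 and -0.916. TOP2A was at 7.88 on both D6 arrays and at 9.35 and 9.28 in E1. Over the alternatives 28 to 33 fell and the median ran from -1.03 to -0.584. Of 34 genes of S phase and replication 22 fell (64.7%) and 2 rose (5.88%), with a median of -0.439. The lower ones included the replication factor CDC45 (2.15-fold lower), the clamp loader RFC4 (1.93-fold) and the helicase subunit MCM6 (1.82-fold). D6 held the lowest median of the 6 clones for both lists. Relative to B7 the mitosis medians were -2.36 in D6, -1.56 in E1, 0.02 in E2, -1.59 in E3 and -1.22 in E6, values that share the B7 arrays. The share of dividing cells and the RNA per cell cannot be told apart in bulk samples. D6 also had the dimmest arrays, as given above.

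Metallothioneins, small proteins that bind zinc, copper and cadmium, were all lower in D6. The 6 tested genes, MT2A, MT1E, MT1F, MT1G, MT1H and MT1X, follow each other on chromosome 16, and all 6 fell, with a median of -0.989. MT1X was at 12.67 and 12.58 in D6 and 14.07 and 14.06 in E1 (2.71-fold, adjusted p = 2.0e-06). MT1F was at 9.85 and 9.87 in D6 and 11.31 on both E1 arrays (2.73-fold). For both genes D6 still stood above B7, and E2, E3 and E6 were lower again (10.08 to 10.27 for MT1X). MT2A differed by -0.66, with B7 highest at 14.52 and E6 lowest at 9.17. MT1G was undetected in D6, at least 1.75-fold lower. MT1E, at -0.47, lost its call under 4 alternatives, among them leaving out the second D6 array or the first E1 array, when 5 remained. MT1 genes are close copies, so probes may share signal.

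Metallothionein genes are known to be switched on by metals through the factor MTF1, which binds metal response elements in their promoters. The 250 bases before the start of MT2A (plus strand, chr16:56608334-56608583) and MT1X (plus strand, chr16:56682220-56682469) are printed from RefSeq (GRCh38.p14) to show the elements that these co-varying neighbours carry. Capitals mark every match, on either strand, to the element core written as TGCACNC or TGCGCNC. No matches overlap here.
MT2A: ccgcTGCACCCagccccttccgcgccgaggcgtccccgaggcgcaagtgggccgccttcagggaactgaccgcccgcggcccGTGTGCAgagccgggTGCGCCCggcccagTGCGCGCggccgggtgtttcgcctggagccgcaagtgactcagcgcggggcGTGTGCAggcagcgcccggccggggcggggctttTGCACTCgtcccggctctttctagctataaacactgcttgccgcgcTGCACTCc
MT1X: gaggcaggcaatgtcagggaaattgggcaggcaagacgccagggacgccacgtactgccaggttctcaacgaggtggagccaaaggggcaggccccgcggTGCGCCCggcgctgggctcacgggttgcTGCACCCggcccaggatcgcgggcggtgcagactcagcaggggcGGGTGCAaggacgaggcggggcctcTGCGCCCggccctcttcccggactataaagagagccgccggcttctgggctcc
MT2A held 7 matches, MT1X 4 and MT1H 8. Of 35116 RefSeq promoter windows of 250 bases, 24.8% held at least 1 match, 0.37% at least 4 and 0.0313% at least 7. A match is a description of the letters and shows no binding.

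RNA of antigen presentation genes was lower in D6 than in E1. Of 19 tested genes of the MHC class I list 10 fell (52.6% against 18.0% of all genes) and 0 rose, with a median of -0.281. Relative to B7 the list's median was 1.34 in D6 and 1.72 in E1, with 0.849, 1.24 and 1.25 in E2, E3 and E6. E1 was thus the highest clone and D6 the next, in values that share the B7 arrays. HLA-B, a classical class I heavy chain, was at 9.31 and 9.38 in D6 and 10.80 and 10.81 in E1 (2.76-fold, adjusted p = 2.1e-05). The peptide transporter TAP1 was 2.06-fold lower and the immunoproteasome subunit PSMB9 1.95-fold lower. HLA genes are alike and vary between people, so their probes can share signal. The count fell to 5 without the second D6 array, 6 without the second E1 array and 7 without the first E1 array, with medians of -0.281, -0.315 and -0.24. CD74, the invariant chain of MHC class II, was undetected in D6 (5.91 and 5.87) and at 7.74 and 7.55 in E1, at least 3.10-fold apart, and E6, at 6.16, was the only other clone detected on both arrays. Interferon-response genes went both ways, with 10 of 30 lower (33.3%) and 6 higher (20% against 14.1% of all genes). BST2, which tethers virus particles, was 3.06-fold lower and SAMD9, an antiviral factor, 2.68-fold higher in D6.

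Lists of hypoxia and glycolysis, cholesterol synthesis and fatty acids had 32.3%, 38.9% and 36.4% of members called lower in D6, against 18.0% of all genes. Of 31 genes of hypoxia and glycolysis 10 fell and 3 rose (16 fell with median scaling), with ANKRD37, a hypoxia-induced gene, 2.81-fold lower and PFKFB3, an activator of glycolysis, 2.40-fold higher in D6. Of 18 genes of cholesterol synthesis 7 fell and 2 rose. Their median of -0.0201 was near the -0.00764 of all genes and reached 0.00612 among the alternatives, so it has no settled direction. INSIG1, which holds back the activation of sterol synthesis, was 2.29-fold lower but -0.0159 at its other probe. Of 22 genes of fatty acid synthesis and storage 8 fell and 1 rose. Of 17 Notch genes 7 fell (41.2%) and 2 rose (11.8% against 14.1% of all genes), with a median of -0.254. LFNG, a glycosyltransferase that modifies Notch, was at 8.38 and 8.48 in D6 and 6.69 and 6.88 in E1 (3.11-fold higher). Every other clone lay at 8.76 to 8.87, so E1 alone was low at this probe. The other kept LFNG probe differed by only 0.312, so the size rests on 1 probe. Of 50 cytosolic ribosomal protein genes 4 rose (8% against 14.1% of all genes) and 0 fell, and the list's median was 0.0394.

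**Figure D4:**
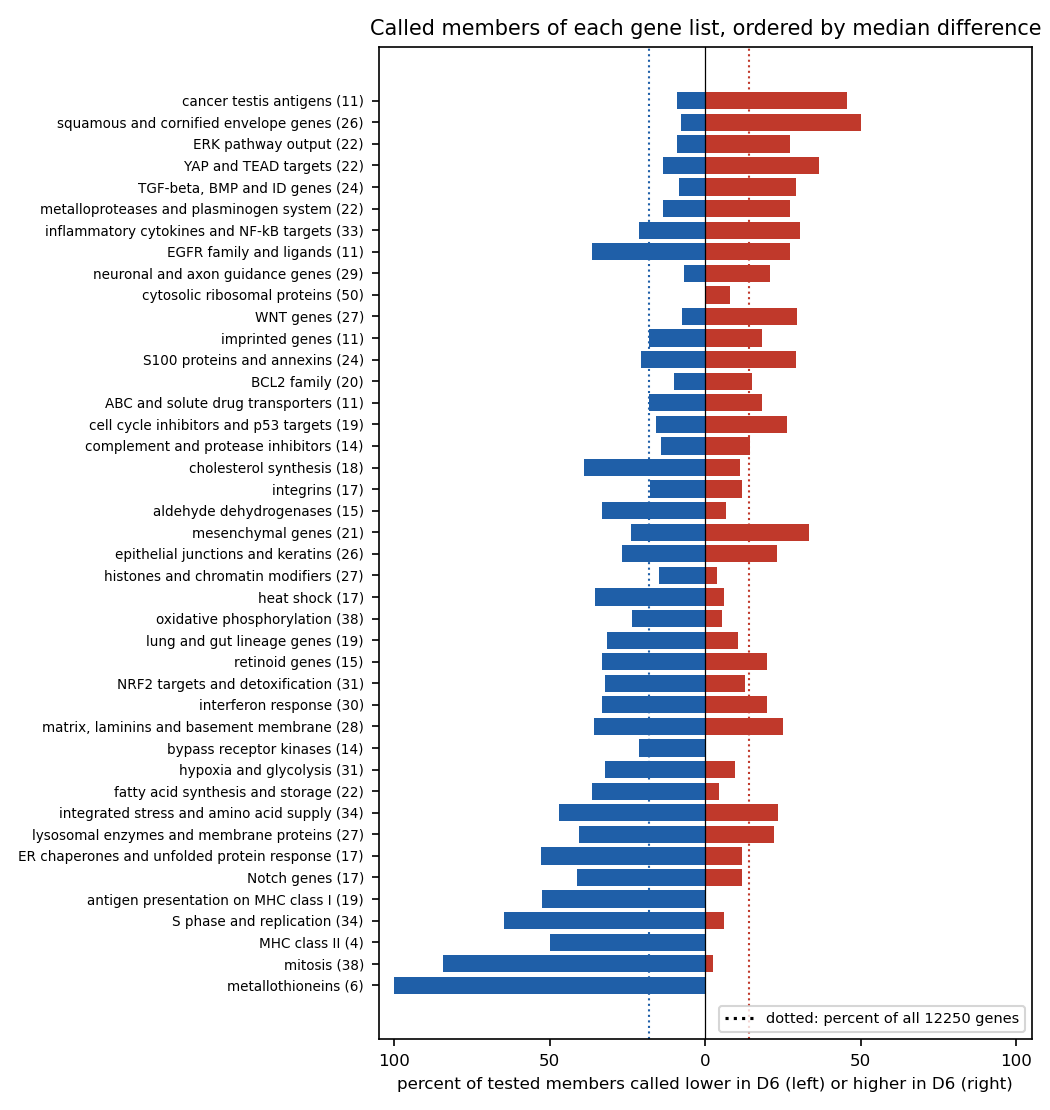
Percent of the tested members of each gene list called higher (right) or lower (left) in D6 at an adjusted p under 0.05, ordered by the median difference, with the number tested in brackets. Dotted lines mark 14.1% and 18.0%, the shares over all 12250 genes. Metallothioneins and mitosis genes lie farthest on the lower side, and squamous genes and cancer testis antigens on the higher side.

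Other lists were mixed or had small medians. The shares over all genes to set their counts against are 14.1% higher and 18.0% lower in D6. In the matrix and basement membrane list 7 of 28 rose and 10 fell. The collagen COL4A6 was 2.66-fold higher and the matrix protein MATN2 2.53-fold lower in D6. The other kept COL4A6 probe differed by only 0.233 and was not detected on any of the 4 arrays. The other MATN2 probe differed by -0.874. Of 31 NRF2 targets and detoxification genes 10 fell and 4 rose, led by the carbonyl reductase CBR3, 2.04-fold lower, but 5 fell without the first E1 array and 4 without the second. Of 27 lysosomal genes 11 fell and 6 rose, but 3 rose without the second E1 array and 2 with median scaling. LAMP3, a lysosomal membrane protein, was 2.50-fold lower, and its other probe differed by -0.39. Among metalloproteases and the plasminogen system 6 of 22 rose and 3 fell. There the matrix protease MMP7 was 2.31-fold lower and the plasminogen activator PLAT 2.14-fold higher, and 1 rose without the second D6 or the second E1 array. In the list of cell cycle inhibitors and p53 targets 5 of 19 rose and 3 fell, but 3 rose without the first D6 array and 2 without the second E1 array or with median scaling. There the quinone oxidoreductase TP53I3 was 3.20-fold higher in D6, although its other probe differed by only 0.531 log2 units. Of 29 neuronal and axon guidance genes 6 rose and 2 fell (0 fell without the first or the second D6 array or the second E1 array), among them the semaphorin receptor NRP1, 2.00-fold higher, although its other probe differed by -0.37. Of 38 genes of oxidative phosphorylation 9 fell (23.7% against 18.0% of all genes) and 2 rose (5.26% against 14.1%). In either direction 28.9% were called, below the 32.1% of all genes. With the 4 arrays of D6 and E1 alone 3 fell and 3 rose. The lists of the BCL2 family, chromatin modifiers, integrins, complement, heat shock, imprinted genes, drug transporters, aldehyde dehydrogenases, retinoid genes, S100 proteins and epithelial junctions had medians between -0.13 and 0.0263. Some still held many called members. Of heat shock genes 35.3% were lower and 5.88% higher in D6, and of aldehyde dehydrogenases 33.3% and 6.67%, against 18.0% and 14.1% of all genes. In either direction 53.3% of retinoid genes, 50% of S100 proteins and annexins and 50% of epithelial junction genes were called, against 32.1% of all genes.

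Runs of neighbouring genes on chromosomes 7 and 10 also differed in one direction, by 0.29 to 1.04 log2 units in size. On chromosome 7, a run of 8 consecutive genes from RHBDD2 to SSC4D was lower in D6, with a median of -0.55. The cytochrome P450 reductase POR was at 7.30 and 7.48 in D6 and 8.42 and 8.44 in E1 (adjusted p = 1.8e-05), with 8.10 to 8.53 in the other clones. The mitochondrial malate dehydrogenase MDH2 was at 13.49 and 13.50 in D6 and 14.15 on both E1 arrays, with 13.89 to 14.07 in the other clones. D6 was the lowest clone for both genes. On chromosome 10, a run of 7 genes from OLMALINC to TWNK was higher in D6, with a median of 0.65. The mitochondrial ribosomal protein gene MRPL43 was at 10.42 and 10.44 in D6 and 9.51 and 9.68 in E1, with 10.21 to 10.28 elsewhere, so here E1 was the low clone. The mitochondrial helicase TWNK and the HIF1 hydroxylase HIF1AN were likewise lowest in E1. Over the alternatives 6 to 8 genes of the first run and 5 to 7 of the second stayed called.

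Medians over windows of 25 neighbouring genes place these runs in wider regions. Of 11679 windows 98.2% had a median within 0.3 log2 units of 0. Windows beyond it join into 10 regions, 3 of them on chromosome 7, each with a median below 0. The longest spans 118 genes from TYW1 to ZKSCAN1, of which 64 were lower in D6 and 3 higher, with a median of -0.355. D6 was the lowest of the 6 clones at 48 of the 118, 40.7% against 16.3% of all genes. A second region on chromosome 7, from TRIM56 to PSMC2, held 26 genes with 11 lower and 0 higher. Chromosome 10 has 2 regions of opposite direction. One spans 64 genes from COX15 to DUSP5, with 33 higher and 6 lower and a median of 0.357, and E1 was the lowest clone at 28 of the 64, 43.8% against 18.8%. The other, from LIPF to ALDH18A1, held 34 genes with 18 lower and 2 higher in D6 (median -0.357). The regions were chosen by their values, so these counts are descriptions. Over chromosome 7 as a whole 31.7% of 589 genes were lower in D6 and 8.32% higher. DNA copy number was not analysed here.

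**Figure D5:**
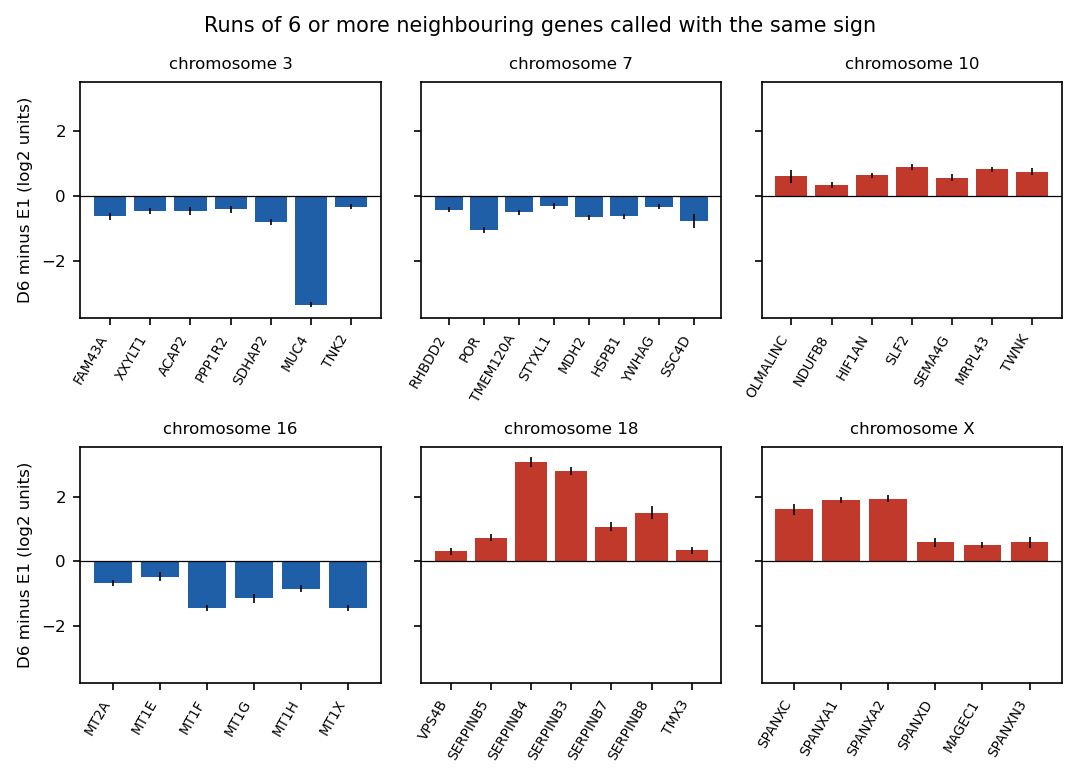
D6 minus E1 in log2 units with standard errors for the genes of each run of at least 6 neighbours called with the same sign, in RefSeq order. The runs on chromosomes 7 and 10 range from 0.29 to 1.04 in size, while those on chromosomes 18 and X hold a few large values among small ones. On chromosome 3 only MUC4 is large (-3.34), and the other genes lie at -0.32 to -0.80.

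Set beside the other tolerant clones, the 290 genes at least 2-fold apart divide almost evenly between D6 and E1 as the clone that stands outside. D6 alone lay outside the range of E2, E3 and E6 at 83 genes, 53 of them high, and E1 alone at 87, of which 68 were high in E1. At 49 genes both lay outside on opposite sides, at 55 both on the same side, and at 16 both within. D6 was the nearer of the 2 to B7 at 197 of the 290 genes, and at 144 of the 176 that were lower in D6. The same counts were not made over all genes, so those of this paragraph are descriptions without a background. E1 was the highest of the 6 clones at 19.7% of all genes and D6 at 13.5%. By root mean square difference over all genes, another measure, D6 lay at 0.9181 from B7 and E1 at 0.9708.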

How the data were processed

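RNA of 6 PC9 clones was measured on 12 Illumina arrays of 47229 probes, 2 arrays per clone. The deposited scanner signal is linear intensity with background already subtracted, judged from the values, since 26.6 to 28.4% of probes per array lie below 0; its detection p-value columns are empty. The authors' processed values are linear intensity with a lowest value of 20, used only as an alternative. The scanner software and the authors' normalization are not given in the sources used here.

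The scanner signal was corrected by normexp (saddle-point fit, offset 16), quantile normalized over the 12 arrays and log2 transformed (limma 3.58.1, R 4.3.3). A probe counted as detected above 2.33 times the root mean square of an array's negative values (limits of 20.1 to 24.1 intensity units, a 1-sided p of 0.01), and 21912 probes were kept, those that some clone detected on both arrays. The planned detection p-values could not be used. The platform annotation gave 30112 probes 1 gene, 8 several and 17109 none. The brightest kept probe stood for its gene. One fit with a mean per clone over all 12 arrays (6 residual degrees of freedom) gave D6 minus E1. P-values are 2-sided and adjusted by Benjamini-Hochberg over 12250 genes, with calls under 0.05. Fold changes were computed from log2 differences. Where a probe was undetected on both arrays of a clone, the fold is a lower bound against the lowest detected signal (or the probe's own, if higher). In simulated data for D6 against E1, only 66, 67 and 67 of 12250 genes were changed, by 0.5, 1 and 2 log2 units. The fit recovered 53%, 82.1% and 100% of them and called 9 unchanged genes. In the real data 3930 genes were called, and the adjustment depends on how many genes differ. These rates and the 9 therefore do not carry over to the real calls. The number of arrays limits the precision.

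The pair of clones and the gene lists were chosen with earlier results of these data known. Named genes are the 15 highest and 15 lowest called genes detected on both arrays of the brighter clone and not overlapping, up to 4 called genes per list, EGFR, MET, AXL, BCL2L11, VIM and CDH1, and members of the runs. Runs are at least 6 consecutive called genes of 1 sign among 12231 genes in RefSeq order (GRCh38.p14), and windows hold 25 genes. The replicate numbers did not pair the arrays: deviations of same-numbered arrays from their clone means correlated at -0.0248 to 0.0543 over 15 pairs of clones. Alternatives were no background correction, an offset of 50, median and 75th percentile scaling, the authors' values, no filter, detection on all 4 arrays, an intensity trend, averaging each gene's probes, the 4 arrays alone, a replicate block and leaving out each array.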

Additional observations from a re-analysis of the deposited data

How the results depend on the processing

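Of the 181 called genes that the text could name, 153 kept their direction and call under all 15 alternatives and 28 lost the call in at least 1; none of the 181 changed sign. All 290 genes at least 2-fold apart stayed called in 10 alternatives, 286 to 288 did in 4 others, and 236 of 236 did where genes had to be detected on all 4 arrays. The counts of genes moved more. Genes higher in D6 numbered 799 with median scaling and 1092 with the authors' values, against 1727. At least 2-fold higher were 304 without background correction, 73 with median scaling and 261 with the authors' values, against 114. At least 2-fold lower were 477 without background correction, 108 with an offset of 50 and 546 with the authors' values, against 176. With 1 array left out, 1158 to 1233 genes were higher and 1497 to 1681 lower, the lone array being assumed to vary like the others, and with the 4 arrays alone 1190 and 1569. The replicate block gave 1683 higher and 2151 lower genes and left 290 of the 290 called. Without a filter on dim probes 20045 genes were tested, and 1190 were higher and 1568 lower.

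The root mean square difference of D6 and E1 was 0.5374 without background correction, 0.3376 with an offset of 50, 0.4048 with median scaling, 0.3822 with 75th percentile scaling, 0.5441 with the authors' values, 0.3465 without a filter, 0.3912 over genes detected on all 4 arrays and 0.377 with the mean over probes. The pair ranked 1 with the offset of 50, 75th percentile scaling and detection on all 4 arrays, and 2 otherwise. Among uncalled genes, MET changed sign to -0.1475 with median scaling, -0.04092 with 75th percentile scaling and -0.1016 with the authors' values, AXL to -0.1322 and -0.02556 with these scalings, and BCL2L11 to -0.05462 with median scaling and -0.03452 with the authors' values. With single arrays left out MET ran from -0.06252 to 0.1076 and AXL from -0.07523 to 0.1487. The causes were not tested.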

Other observations

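Replication-dependent histone genes were called higher in D6 more often than lower, unlike the cell cycle lists. The family was picked after its values were seen and so is given with no test. Of 32 tested, 14 were called higher in D6 and 1 lower, and the others were not called. Over all genes 14.1% were called higher and 18.0% lower. The median difference of the family was 0.35 log2 units. H4C8, which encodes histone H4, was at 8.93 on average in D6 and 7.31 in E1, with 6.75 to 7.71 in the other clones. H2AC25 was at 9.59 and 9.50 in D6 and 7.79 and 8.29 in E1. H2BC5 was at 12.43 on average in D6 and 11.80 in E1, and at 8.15 in B7. The exception was H4C3, lower in D6 by 0.29 and highest in B7 at 15.50. Relative to B7 the median of the family was 0.375 in D6, 0.0117 in E1, 0.00131 in E2, 0.0289 in E3 and 0.305 in E6. Histone genes are close copies, so probes may share signal.

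Among the other regions with windows beyond 0.3 log2 units, 42 genes on chromosome 3 from EIF4A2 to SENP5 held 21 lower and 4 higher in D6, with a median of -0.275, and E1 stood above the mean of B7, E2, E3 and E6 by a median of 0.379 there and D6 by -0.0203. On chromosome 7, 47 genes from RNF133 to AKR1B10 held 21 lower and 2 higher.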
